A study of Mus musculus with 4 samples.

Results

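A group of 10 genes for myeloid C-type lectin receptors was followed on 4 microarrays of microglia, the macrophages that reside in the brain, cultured from mice. The genes are Clec4a2, Cd209f, Clec4a1, Clec4a3, Clec12a, Clec4e, Clec4d, Clec4n, Clec7a and Clec5a, out of 19938 genes with a value. Each was taken from the probe set whose annotation names that gene alone, and each had 1 such probe set. The group was put together because Clec4a2 and Cd209f differed between the genotype labels on these same arrays, so differences between genotypes are given below as descriptions, with no test. RNA came from microglia labelled Bid-/- and given lipopolysaccharide (LPS) for 3 h, from wild-type (WT) C57Bl microglia given LPS for 3 h, from untreated Bid-/- microglia and from untreated WT C57Bl microglia. Each of these groups was 1 Affymetrix Mouse Gene 1.0 ST array, and the series states that nothing was replicated. For the Bid-/- cells, the sources used here give neither background strain nor sex nor how many cultures were taken, so none of these can be told apart from the missing gene.

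C-type lectin receptors are surface proteins with which macrophages and dendritic cells recognise sugars and lipids of fungi, bacteria and damaged cells. Activating members carry, or pair with adaptors that carry, tyrosine motifs that recruit the kinase Syk and, through Card9, Bcl10 and Malt1, switch on NF-kB. Inhibitory members carry a tyrosine motif that recruits phosphatases and dampens such signals. LPS, a bacterial cell wall component, is seen by another receptor, TLR4, and is known to change the expression of some lectin receptors. Bid is a pro-apoptotic protein that carries signals of death receptors to mitochondria.

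Values are the deposited log2 expression values, and a difference of 1 is a 2-fold change. All 10 genes were above the expression floor of 4.26, the median of all probe sets, on all 4 arrays. Each group being a single array, differences between arrays lack a replicate check, and precision is limited by how few arrays there are. The probe set for Bid read 5.97 with LPS on the array labelled Bid-/- and 5.02 on the WT array, and untreated it read 5.53 on the array labelled Bid-/- and 5.69 on the WT array. The sources used here do not place its probes relative to the deleted part, so it may check nothing, and the genotypes are those of the labels. Of 15 homeostatic microglia genes with a value, 13 reached the floor on at least 1 array, among them the general macrophage and microglia genes Csf1r, Aif1 and Itgam. Gpr34 and Siglech stayed under it on all 4 arrays. P2ry12 passed the floor only untreated, at 4.38 on the array labelled Bid-/- and 4.33 on the WT array. Tmem119 and Sall1 read between 5.12 and 5.83.

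**Figure D1:**
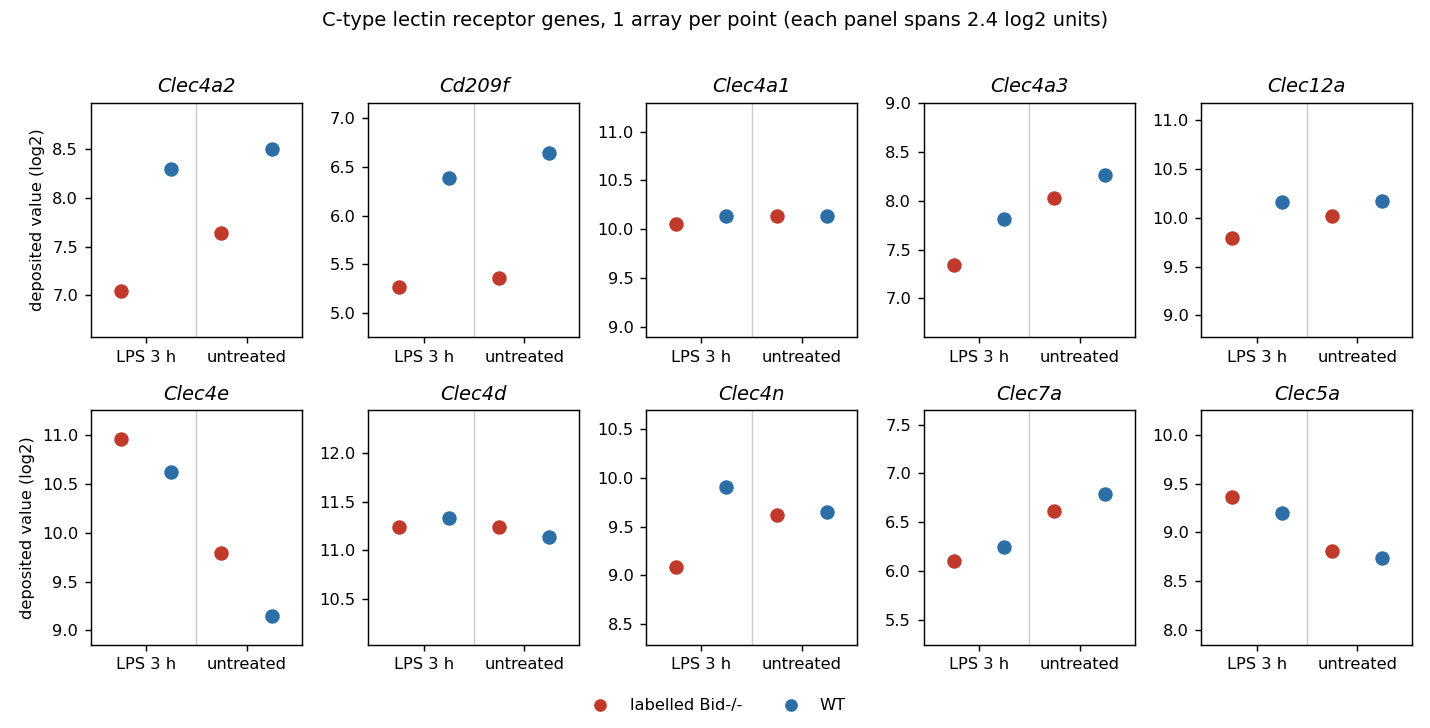
Deposited log2 value of each receptor gene (vertical axis) on each array, with LPS at the left and untreated at the right of each panel; red points are arrays labelled Bid-/- and blue points WT arrays, 1 array per point with no error bar. Clec4a2 and Cd209f lay lower on both arrays labelled Bid-/-, and Clec4e lay higher on both LPS arrays.

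The inhibitory receptor Clec4a2 and the CD209 family gene Cd209f read lower on both arrays labelled Bid-/-. Clec4a2 encodes the dendritic cell immunoreceptor DCIR, which recruits tyrosine phosphatases through its cytoplasmic tail. With LPS, Clec4a2 read 7.05 on the array labelled Bid-/- and 8.30 on the WT array, a difference of -1.25, or 2.38-fold lower. Untreated, Clec4a2 read 7.64 on the array labelled Bid-/- and 8.50 on the WT array, a difference of -0.86, or 1.82-fold lower. Both arrays labelled Bid-/- were thus below both WT arrays, and the array with LPS was the lower of each pair.

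Cd209f belongs to the mouse family related to the human receptor DC-SIGN, and its transcript is used as a marker of macrophages at the borders of the brain. With LPS it read 5.27 on the array labelled Bid-/- and 6.38 on the WT array, a difference of -1.11, or 2.16-fold lower. Untreated it read 5.36 on the array labelled Bid-/- and 6.64 on the WT array, a difference of -1.28, or 2.43-fold lower. Of 10909 genes compared between the untreated arrays, Cd209f had the lowest difference. The 2 values on arrays labelled Bid-/- lay 0.09 apart, and the 2 WT values 0.26 apart. Because the group was chosen for the genotype difference of Cd209f among others, nothing is read from its rank or from these distances.

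The group also holds genes with hardly any difference between the labels. Clec4a1, a relative of Clec4a2, differed by -0.09 with LPS and 0.01 without it, and Clec4d, which encodes the Mincle partner MCL, by -0.09 and 0.10. Clec4e, which encodes Mincle, a receptor for mycobacterial cord factor, differed the other way, by 0.34 with LPS and 0.64 without. Clec4n encodes Dectin-2, a receptor for fungal mannans. With LPS, Clec4n read 9.08 on the array labelled Bid-/- and 9.90 on the WT array, a difference of -0.82, while untreated it read 9.62 and 9.65. Its lowest value was thus on the Bid-/- array with LPS.

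The 4 remaining genes differed by less than 1.5-fold in each condition. Clec4a3, another DCIR relative, differed by -0.47 with LPS and -0.24 without, and Clec12a, an inhibitory receptor for uric acid crystals, by -0.37 and -0.15. Clec7a, which encodes the beta-glucan receptor Dectin-1, differed by -0.14 and -0.18. Clec5a, which signals through the adaptor DAP12, differed by 0.16 and 0.07. Over the whole group, 6 of 10 genes were below 0 in both conditions, against 27.2% of the 11326 genes past the floor on any array. The median difference was -0.26 with LPS and -0.09 without, against 0.01 over all genes in either condition. Because the group was chosen on this contrast, nothing is read from this count or these medians.

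With LPS, a value at least 2-fold lower on the Bid-/- array was read for 2 of 10 genes (Clec4a2 and Cd209f), against 0.489% of 11044 genes, and none (0) was 2-fold higher, against 0.326%. Untreated, 1 of 10 was at least 2-fold lower (Cd209f), against 0.0733% of 10909 genes, and none (0) was higher, against 0.358%. At 1.5-fold with LPS, 3 of 10 were lower, against 6.07%, and none (0) higher, against 4.69%. At 1.5-fold untreated, 2 of 10 were lower, against 0.44%, and 1 higher (Clec4e), against 1.45%. In both conditions 2 of 10 were at least 1.5-fold lower, against 0.194% of 11326 genes, and none (0) higher, against 0.415%. Because the group was chosen on this contrast, these shares are given beside the counts and nothing is read from them. After removal of trends with intensity and gene span, the Cd209f difference with LPS was -0.92 and no longer reached 2-fold.

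**Figure D2:**
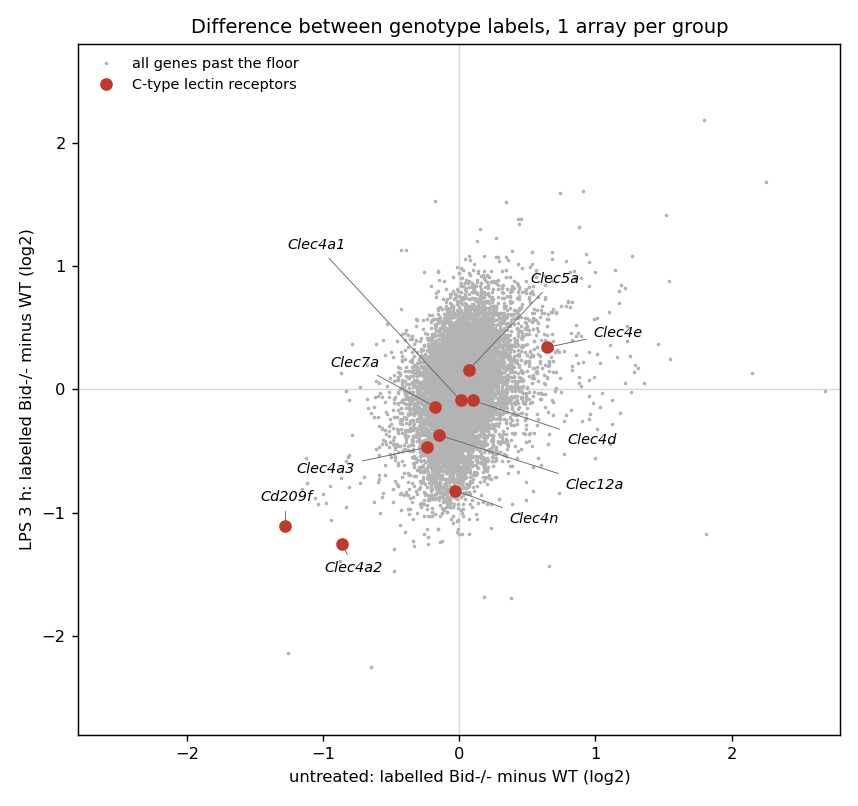
Difference between the array labelled Bid-/- and the WT array (log2), with LPS on the vertical axis and untreated on the horizontal axis; grey points are the 11326 genes past the floor and red points the 10 receptor genes. Cd209f at -1.11 with LPS and -1.28 without, and Clec4a2 at -1.25 and -0.86, lie at the lower left, apart from the other 8.

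Of the neighbouring lectin genes, some also read lower on the arrays labelled Bid-/-, at values near or under the floor. Cd209g, the gene next to Cd209f on chromosome 8, read 3.80 with LPS on the array labelled Bid-/- and 4.36 on the WT array, and untreated 3.70 and 4.83. Only the WT arrays reached the floor for Cd209g. Cd209a, Cd209b, Cd209c, Cd209d and Cd209e, with Clec4g beside them, were under the floor on all 4 arrays and differed by -0.22 to 0.24 with LPS and by -0.14 to 0.11 without. Clec4a4, Clec4b1 and Clec4b2 lie in the same cluster as Clec4a2 and were again under the floor on every array. They differed by -0.51, -0.45 and -0.26 with LPS and by -0.65, -0.14 and -0.54 without. Cd209g, Clec4a4, Clec4b1 and Clec4b2 were named here after their values were seen. Whether probes of these similar genes also bind transcripts of their relatives was not tested.

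Of the 10 receptor genes 9 lie on chromosome 6, which also carries Bid, and 6 of them form the Clec4 cluster. In the order of measured protein-coding genes of the RefSeq table for GRCm38.p6, Clec4a1 is gene number 23 after Bid, Clec4a3 number 24, Clec4a2 number 27, Clec4n number 29, Clec4d number 30 and Clec4e number 31. Between Bid and Clec4a1 lie 22 measured genes, of which 13 were past the floor. Their differences between the labels ran from -0.55 to 0.54 with LPS and from -0.26 to 0.20 without it, with medians of 0.00 and -0.01. None (0 of 13) was 1.5-fold apart in either condition. Over all genes, 4.69% were at least 1.5-fold higher with LPS and 6.07% lower, and untreated 1.45% and 0.44%. With only 13 genes, nothing is read from that count. Differences inside the cluster were uneven in size. Clec4a2 was the only one of its 9 measured genes at least 1.5-fold apart in both conditions. The adjoining genes Clec4a3, Clec4a4, Clec4b1, Clec4a2, Clec4b2 and Clec4n were all below 0 in both conditions. Of these, Clec4a4, Clec4b1 and Clec4b2 were under the floor on all 4 arrays. Clec4a1 and Clec4d were below 0 only with LPS, and Clec4e, 4 places after Clec4a2, lay on the other side of 0 in both. Whether this run of genes has a shared origin was not tested. Because the Bid-/- background is not labelled, DNA carried along with the Bid allele cannot be told apart from loss of Bid for genes of this region. Cd209f lies on another chromosome, 8, and for it too a difference in background cannot be told apart from loss of Bid.

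**Figure D3:**
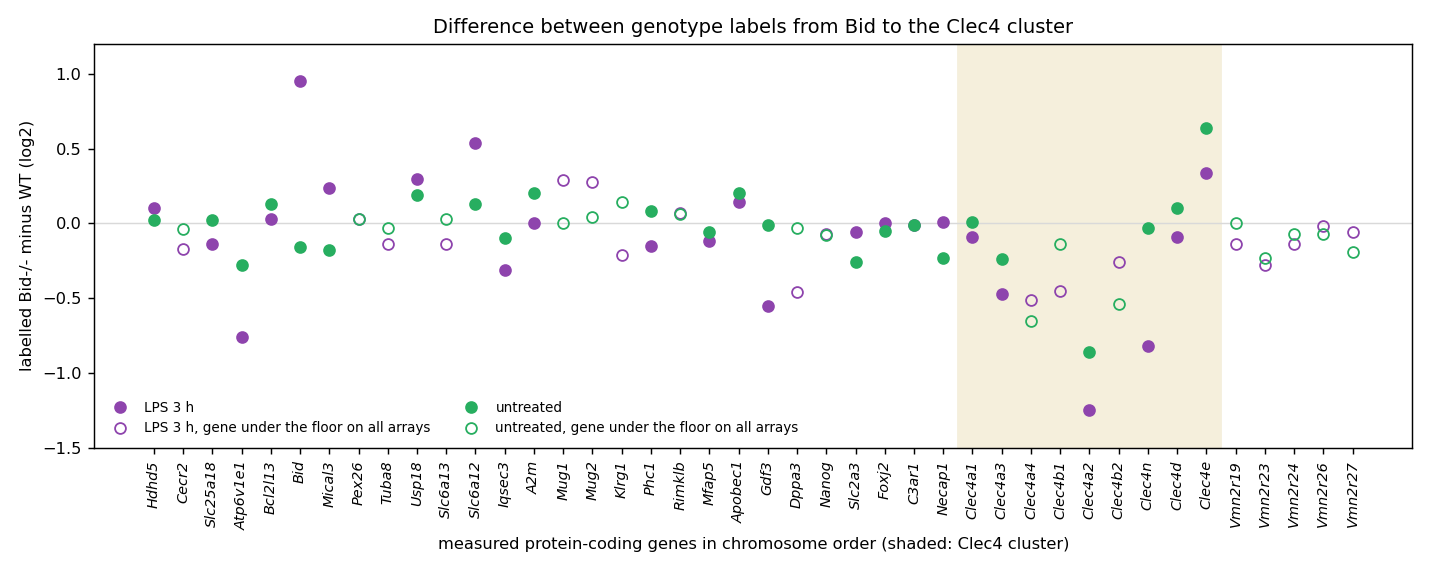
Difference between the array labelled Bid-/- and the WT array (log2, vertical axis) for measured protein-coding genes in chromosome order (horizontal axis), from 5 genes before Bid to 5 genes after Clec4e; purple points are the LPS arrays, green points the untreated arrays, and open points genes under the floor on all 4 arrays. Filled points between Bid and the shaded Clec4 cluster lie within -0.55 and 0.54, and Clec4a2 reaches -1.25 and -0.86.

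Genes of other macrophage types did not all move with Clec4a2 and Cd209f. Of 11 border macrophage genes, 6 were past the floor on the array labelled Bid-/- with LPS, 5 on the WT array with LPS and 6 on each untreated array. Their summed linear level was 3350 with LPS on the array labelled Bid-/- and 3218 on the WT array, and untreated 3250 and 3185. The defining markers Mrc1, Cd163 and Lyve1 stayed under the floor on all 4 arrays. The chemokine gene Pf4 read 8.16 with LPS on the array labelled Bid-/- and 9.63 on the WT array, and 8.75 and 9.23 untreated. Siglec1, a sialic acid receptor of macrophages, ran the other way, at 10.65 and 9.84 with LPS and 10.39 and 9.95 untreated. Without Siglec1, left out after its values were seen, the border macrophage sums were 1743 and 2302 with LPS and 1909 and 2196 untreated. Of the 5 remaining genes past the floor, 3 were lower on the arrays labelled Bid-/- in each condition, Pf4 among them. F13a1 (by 0.73 with LPS and 0.51 untreated) and Stab1 (by 0.59 and 0.08) were higher.

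Homeostatic microglia genes had a summed linear level of 5687 with LPS on the array labelled Bid-/- and 6701 on the WT array, and of 7846 and 8897 untreated. Fcrls was the only gene of that list at least 1.5-fold apart in both conditions. Without Fcrls, left out after its values were seen, the sums were 4698 and 4639 with LPS and 6305 and 5940 untreated. The list's median difference between the labels, Fcrls included, was -0.01 with LPS and 0.06 without. The fractalkine receptor gene Cx3cr1 of that list fell with LPS (mean change -1.26 ± 0.16, SE, limma adjusted p = 0.045), and Ccr7, a homing receptor of dendritic cells, rose (1.18 ± 0.16, limma adjusted p = 0.0499). Fibroblast and mural genes summed to 632 and 690 with LPS and to 752 and 365 untreated, all 8 genes past the floor being higher on the array labelled Bid-/- untreated. With LPS 6 of these 8 were higher and 2 lower. Dcn, a fibroblast proteoglycan gene named after its value was seen, differed by 0.13 with LPS and 2.15 without, and Tagln, a smooth muscle gene, by -1.43 and 0.66. Of the monocyte genes, Vcan alone was at least 1.5-fold apart in both conditions, at 5.53 on the array labelled Bid-/- and 4.63 on the WT array with LPS and at 5.59 and 4.74 untreated, while Ccr2 and Plac8 were under the floor on all 4 arrays. Monocyte genes summed to 98 and 79 with LPS and 112 and 66 untreated, and dendritic cell genes to 340 and 316 with LPS and 215 and 212 untreated. The part of such cells in the receptor differences was not tested, and fewer cells of a type cannot be told apart from less RNA per cell in these cultures. Sums were 335 and 318 with LPS and 334 and 285 untreated for neutrophils, 52 and 54, then 47 and 50 for lymphocytes, 51 and 50, then 49 and 48 for neurons, and 89 and 84, then 85 and 77 for endothelium. Sums over different probe sets do not rank cell types. Those for astrocytes were 152 and 171 with LPS and 137 and 127 untreated, and for the oligodendrocyte lineage 368 and 319, then 571 and 512.

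The genes with profiles most like Clec4a2 and Cd209f overlapped in part. Likeness was measured as the Euclidean distance between the 4 values of 2 genes after each gene was centred on its own mean, over 11325 other genes. For Clec4a2 the nearest genes were Fcrls, an Fc receptor-like gene of microglia (distance 0.24), the potassium channel gene Kcnn4 (0.27), Morc4 (0.28), the stress-responsive gene Ndrg1 (0.31) and Unc119 (0.32). For Cd209f they were Cd5l, which encodes a protein secreted by macrophages (0.26), Kcnn4 (0.28), Lrmda (0.38), Ndrg1 (0.38) and Clec4a2 itself (0.38). Cd5l was under the floor on both arrays labelled Bid-/- (3.50 with LPS, 3.38 untreated) and near it on the WT arrays (4.31 and 4.54). Morc4 was under the floor with LPS on the array labelled Bid-/- (3.96). Fcrls read 9.95 with LPS on the array labelled Bid-/- and 11.01 on the WT array, and 10.59 and 11.53 untreated. These are descriptions over 4 arrays of genes that all differed in the contrast used to choose the group.

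LPS raised Clec4e, and no other gene of the group passed the test. The genes were chosen for genotype differences, with LPS results of these data also known. An additive model of genotype and LPS was fitted with limma to all 11326 genes past the floor. It asks for a change shared by both genotypes and has 1 residual degree of freedom. Clec4e read 10.96 with LPS on the array labelled Bid-/- and 9.79 untreated, and 10.62 with LPS on the WT array and 9.15 untreated. Both LPS arrays were above both untreated arrays, and the changes of 1.17 (labelled Bid-/-) and 1.47 (WT) correspond to 2.25-fold and 2.77-fold. The mean change was 1.32 ± 0.15 (SE, 4 arrays, limma adjusted p = 0.0388, higher in both genotypes). Across the 11 settings tried, that limma adjusted p ran from 1.13e-14 to 0.123, the highest when no floor was applied. The 1 residual degree of freedom is the difference of LPS change between the genotype labels. The p-values thus weigh the shared change against that difference, moderated by a spread taken over all genes fitted. They measure no spread between repeated cultures. Nothing in the labels says that the arrays came from separate cultures, so differences between them may be technical.

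Clec4d, which lies next to Clec4e and whose product pairs with Mincle, did not follow it. Clec4d read 11.24 with LPS and 11.24 untreated on the arrays labelled Bid-/-, and 11.33 and 11.14 on the WT arrays (mean change 0.10 ± 0.11, SE, limma adjusted p = 0.643). The promoters of this neighbouring pair and of the 2 genes that differed most between the labels are printed here so that their letters can be set beside these differences. They run 5′ to 3′ on the gene's strand, from 250 bases before to 50 bases after the annotated start, from RefSeq (GRCm38.p6), where 9 of the 10 genes had a window. Capitals mark matches on either strand to TTGCNNAA, the letters bound by C/EBP factors, and to GAGGAA, a core bound by the macrophage factor PU.1.
Clec4e (chr6:123289822-123290121, minus strand): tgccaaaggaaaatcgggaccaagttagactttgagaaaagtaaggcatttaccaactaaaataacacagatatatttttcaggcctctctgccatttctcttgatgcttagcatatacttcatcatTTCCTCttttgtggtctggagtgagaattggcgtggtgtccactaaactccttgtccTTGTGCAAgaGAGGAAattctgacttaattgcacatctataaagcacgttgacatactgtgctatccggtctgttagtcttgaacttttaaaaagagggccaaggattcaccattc
Clec4d (chr6:123261857-123262156, plus strand): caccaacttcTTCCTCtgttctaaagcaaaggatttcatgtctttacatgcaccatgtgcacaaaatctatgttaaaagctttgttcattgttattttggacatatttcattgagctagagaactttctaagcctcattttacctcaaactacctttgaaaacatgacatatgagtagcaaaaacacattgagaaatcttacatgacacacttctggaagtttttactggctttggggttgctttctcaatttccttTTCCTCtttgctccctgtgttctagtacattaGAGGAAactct
Clec4a2 (chr6:123122440-123122739, plus strand): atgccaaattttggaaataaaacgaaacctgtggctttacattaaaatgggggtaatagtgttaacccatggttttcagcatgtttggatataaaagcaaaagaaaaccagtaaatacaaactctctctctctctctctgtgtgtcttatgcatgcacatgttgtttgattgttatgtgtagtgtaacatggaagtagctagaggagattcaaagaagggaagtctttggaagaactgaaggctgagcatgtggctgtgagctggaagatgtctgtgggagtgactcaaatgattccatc
Cd209f (chr8:4105715-4106014, minus strand): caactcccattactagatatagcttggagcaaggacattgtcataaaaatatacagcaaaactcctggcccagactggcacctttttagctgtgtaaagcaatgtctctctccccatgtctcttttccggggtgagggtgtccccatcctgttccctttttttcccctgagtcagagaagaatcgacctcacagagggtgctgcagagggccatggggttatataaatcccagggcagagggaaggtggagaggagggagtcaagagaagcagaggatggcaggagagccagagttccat
The Clec4e window held TTGTGCAA, a C/EBP match on the opposite strand, with its leftmost base 66 bases before the start, and PU.1 matches 56 and 123 bases before it. The Clec4d window held 3 PU.1 matches and no C/EBP match, and the Clec4a2 and Cd209f windows held neither. Of the 9 genes with a window, 2 had a C/EBP match (Clec4e and Clec12a) and 7 a PU.1 match, against 10.8% and 28.3% of all 32851 windows of that length. The units differ: the 9 genes had 11 windows and were counted for a match in any of them, while the shares are per window. Clec12a, whose window is not printed, held a C/EBP match and PU.1 matches, and its mean change with LPS of -0.12 did not pass. All of these are matches of letters and were not tested as sites.

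Among the other activating receptors, Clec5a read higher and Clec7a lower with LPS in both genotypes, by amounts that did not pass. Clec5a read 9.36 with LPS and 8.81 untreated on the arrays labelled Bid-/-, and 9.20 and 8.74 on the WT arrays (mean change 0.51 ± 0.14, SE, limma adjusted p = 0.119). Clec7a read 6.10 with LPS and 6.61 untreated on the arrays labelled Bid-/-, and 6.24 and 6.79 on the WT arrays (mean change -0.53 ± 0.12, SE, limma adjusted p = 0.0908). For both genes the 2 LPS arrays lay on 1 side of the 2 untreated arrays, and the changes in the 2 genotypes were within 0.09 of each other.

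Clec4a2 and its relatives gave changes with LPS that did not pass. Clec4a3 read 7.34 with LPS and 8.03 untreated on the arrays labelled Bid-/-, and 7.81 and 8.27 on the WT arrays (mean change -0.58 ± 0.15, SE, limma adjusted p = 0.11). The mean change of Clec4a2 was -0.40 ± 0.17 (SE, limma adjusted p = 0.234), made up of -0.59 on the arrays labelled Bid-/- and -0.20 in WT. Clec4a1 stayed between 10.05 and 10.14 on all 4 arrays (mean change -0.04 ± 0.13, SE, limma adjusted p = 0.868). Whether the 3 genes differ from each other was not tested.

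Clec12a stayed between 9.79 and 10.17, with changes of -0.23 on the arrays labelled Bid-/- and -0.01 in WT. Cd209f differed between LPS and untreated arrays by -0.09 and -0.26 (mean -0.18 ± 0.12, SE, limma adjusted p = 0.414). Clec4n was the gene whose LPS changes were farthest apart: -0.54 on the arrays labelled Bid-/- and 0.25 in WT, a difference of -0.79. Its mean change of -0.15 ± 0.24 (SE, limma adjusted p = 0.734) has the widest error of the 10. In this fit the error reflects that same difference of -0.79, so it is not a separate observation. With 4 arrays the difference of response has no test of its own.

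In all, the limma fit called 1 of 10 genes higher with LPS, against 1.68% of 11326 genes, and none (0) lower, against 1.56%. Before adjustment, 4 of 10 had a limma p under 0.05, against 28.8% of all genes. At least 2-fold higher with LPS was 1 of 10 on the arrays labelled Bid-/- (Clec4e), against 2.7% of 10995 genes, and 1 of 10 in WT (Clec4e), against 2.39% of 11129. None (0) was 2-fold lower, against 1.65% on the arrays labelled Bid-/- and 2.08% in WT. At 1.5-fold on the arrays labelled Bid-/-, 1 of 10 was higher, against 6.88%, and 2 lower (Clec4a2 and Clec4a3), against 10.4%. In WT at 1.5-fold, 1 of 10 was higher, against 5.8%, and none (0) lower, against 11.1%. Changes below 0 in both genotypes were read for 5 of 10, against 42.1% of all genes past the floor, and changes above 0 in both for 2 of 10, against 26.5%. The median change was -0.16 on the arrays labelled Bid-/- and 0.00 in WT, against -0.10 and -0.05 over all genes.

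**Figure D4:**
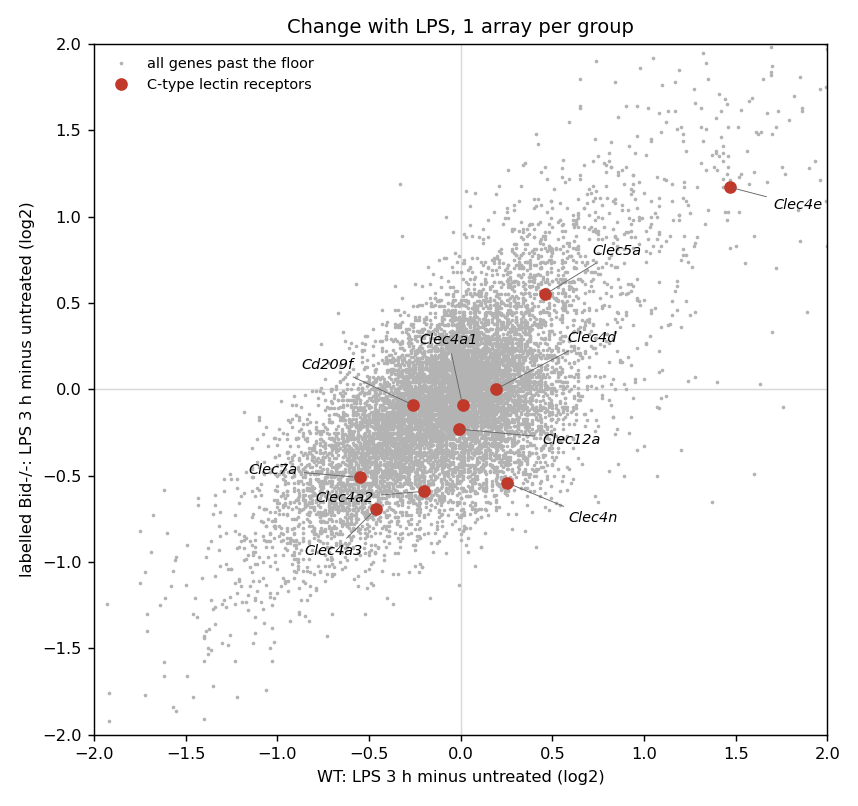
Change with LPS (LPS minus untreated, log2) on the arrays labelled Bid-/- (vertical axis) and the WT arrays (horizontal axis); grey points are genes past the floor, of which 88 lie beyond the axes, and red points the 10 receptor genes. Clec4e lies at 1.17 and 1.47, Clec5a at 0.55 and 0.46, and Clec4n at -0.54 and 0.25.

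None (0) of the 10 reached a 2-fold difference of response (the LPS change of the labelled Bid-/- cells less the WT one), against 0.159% of 11326 genes for a higher and 0.627% for a lower value. At 1.5-fold, 1 of 10 was lower (Clec4n), against 6.06%, and none (0) higher, against 3.26%. It ran from -0.79 for Clec4n to 0.17 for Cd209f, and 7 of 10 were below 0, against 49.1% of all genes, with a median of -0.21 against 0.00 over all genes. For Clec4e it was -0.30: the array labelled Bid-/- started 0.64 higher and ended 0.34 higher. The untreated arrays enter both the difference of response and the untreated comparison, so these are not separate observations. Over 6 settings of the values, the difference of response of Clec4a1 ran from -0.10 to 0.0075, so its sign is not settled. The difference of response is also built from the genotype contrast on which the group was chosen, so nothing is read from its count or median. Of the 10 genes, 7 had their lowest value on the Bid-/- array with LPS, against 31.2% of the 11326 genes. This count too takes in the genotype contrast on which the group was chosen, and nothing is read from it.

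Among 29 other C-type lectin receptor genes, 9 were past the floor on at least 1 array. The limma fit called 2 of them higher with LPS, against 1.68% of 11326 genes, and none (0) lower, against 1.56%. Olr1, the receptor for oxidised low-density lipoprotein, read 6.71 with LPS and 3.57 untreated on the arrays labelled Bid-/-, and 5.80 and 3.23 on the WT arrays (limma adjusted p = 0.0225). Both untreated Olr1 values were under the floor, so no size is given for its change. The activation antigen Cd69 read 9.31 and 7.83 on the arrays labelled Bid-/-, and 9.32 and 7.62 on the WT arrays (mean change 1.59 ± 0.15, SE, limma adjusted p = 0.0327). The mannose receptor Mrc1 stayed under the floor on all 4 arrays.

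Of 21 genes that carry the receptors' signals, 19 had a value and 18 were past the floor. Of these, 2 rose with LPS, against 1.68% of 11326 genes, and none (0) fell, against 1.56%. Malt1, the paracaspase that acts with Card9 and Bcl10, read 10.10 with LPS and 6.99 untreated on the arrays labelled Bid-/-, and 9.35 and 6.36 on the WT arrays (mean change 3.05 ± 0.15, SE, limma adjusted p = 0.0208). It was also the only gene of this list at least 1.5-fold apart between the labels in both conditions, by 0.75 with LPS and 0.63 without. The kinase Src rose by 1.52 on the arrays labelled Bid-/- and 1.46 in WT (limma adjusted p = 0.0298). Bcl10 (1.05 and 0.96, adjusted p = 0.053), the kinase Syk (0.75 and 0.48, adjusted p = 0.0991) and Card9 (-0.42 and -0.54, adjusted p = 0.105) did not pass the limma test.

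The adaptor Fcer1g, with which Mincle, MCL and Dectin-2 signal, read 11.73 with LPS on the array labelled Bid-/- and 11.99 on the WT array, and 11.82 on both untreated arrays. Tyrobp, which encodes DAP12, the adaptor of the Clec5a product, read 9.71 and 10.35 with LPS and 10.01 and 10.07 untreated. Of the 3 phosphatases that act behind inhibitory receptors none (0) passed for LPS; Inpp5d, which encodes SHIP1, was nearest, at -0.87 on the arrays labelled Bid-/- and -0.97 in WT (limma adjusted p = 0.0576). Of the 3 transcription factors none (0) passed: Cebpb differed by -0.01 and 0.32, Cebpd by 0.22 and 0.68, and Spi1, which encodes PU.1, by 0.31 and 0.38. Of 14 genes that these receptors are known to induce, 12 rose, against 1.68% of 11326 genes. Those that rose include Il6, Csf2, Cxcl1 and Il12b, and Egr2 and Egr3 did not pass. Some untreated values, such as both of Csf2, were under the floor, so no order of size is given. TLR4 signalling also induces many of these.

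**Figure D5:**
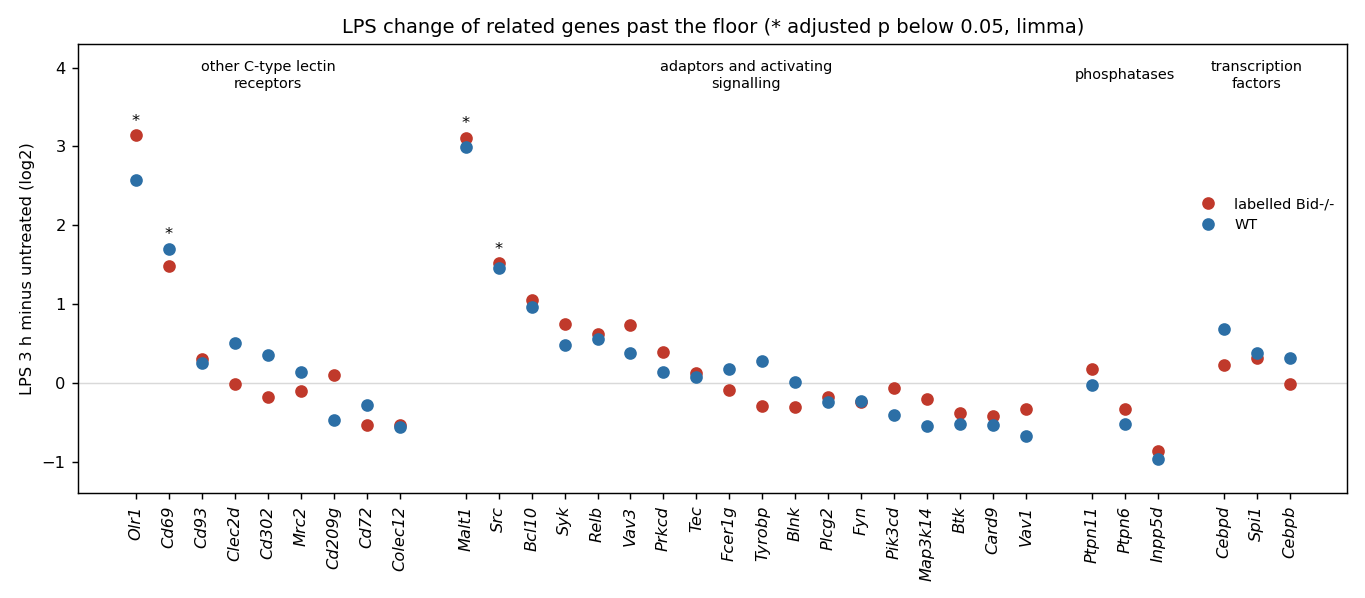
Change with LPS (log2, vertical axis) of other C-type lectin receptors, adaptors and activating signalling genes, phosphatases and transcription factors past the floor (horizontal axis), with red points for the arrays labelled Bid-/- and blue points for the WT arrays; a star marks an adjusted p below 0.05 in the additive limma fit. Olr1, Cd69, Malt1 and Src carry a star.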

How the data were processed

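Per the submitters' processing notes, RMA, Affymetrix Expression Console and Partek 6.2 were used, with no role or order given. The authors deposited 1 table of log2 values for 28944 probe sets on 4 arrays; the file does not name the log base, which was read from its range of 1.4 to 13.5. The probe sets' genome build was not given in the sources used here. Of the probe sets, 21789 had 1 gene symbol in the platform annotation, 1621 had several and 5534 had none, and 21698 of the first kind matched the RefSeq gene table of GRCm38.p6, which was used for gene order and span. For 999 genes with several probe sets, the one with the highest mean was used. A gene entered a comparison when an array compared reached 4.26.

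With limma 3.58.1 (R 4.3.3) an additive model of both factors was fitted, with eBayes on an intensity trend. Benjamini-Hochberg adjustment was over 11326 genes at a threshold of 0.05. The fit was also run on simulated data with independent noise. Those data lacked the array-wide trends and zero residuals of these arrays, so that run does not check the calls made here. In 169 genes the residual was exactly 0, and the prior had 3.07 degrees of freedom. With these genes left out the prior degrees of freedom were infinite, so the errors and adjusted p-values given depend on them. The named genes were the receptor genes, Bid, genes from Bid to the Clec4 cluster at least 1.5-fold apart in both conditions, the 5 nearest profiles of Clec4a2 and Cd209f, up to 4 genes of each other list that passed for LPS, those at least 1.5-fold apart in both conditions, and Mrc1, Cd163, Lyve1 and Pf4; other genes named were chosen after their values were seen. Members and lists were chosen with earlier results of these data known. Alternatives changed the floor, the normalization, trends in intensity and gene span, the probe set rule, the variance prior, the zero residuals and the fold threshold.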

Additional observations from a re-analysis of the deposited data

Results flagged for a closer look

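For 3 genes an effect had opposite signs in the 2 groups compared, which was not tested because each group is 1 array. Clec4n differed with LPS by -0.54 on the arrays labelled Bid-/- and by 0.25 on the WT arrays. Clec4a1 differed with LPS by -0.09 on the arrays labelled Bid-/- and by 0.01 on the WT arrays, and its difference between the labels was -0.09 with LPS and 0.01 without. For Clec4d the difference between the labels was -0.09 with LPS and 0.10 without. The spread of the difference of LPS change over all 11326 genes (the scaled median absolute deviation) was 0.33, so that of Clec4n (-0.79) is wider than this spread, and those of Clec4a1 (-0.10) and Clec4d (-0.19) are within it.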

How the results depend on the processing

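The calls of the additive limma fit were the least settled values. The number of receptor genes called for LPS was 1 in the setting reported and 0 without a floor, where 0 of 19938 genes passed, 3751 had an unadjusted p under 0.05, and Clec4e read an adjusted p of 0.123. It was 3 once the intensity and gene span trends were taken out (Clec4e, Clec4a3 and Clec5a) and 3 with genes of zero residual left out (Clec4e, Clec4a3 and Clec7a). Over all genes the fit called 190 higher and 177 lower as reported, 877 and 1025 after quantile normalization, 520 and 945 with arrays centred on their median, 906 and 1089 with the intensity trend removed, 1207 and 1498 with the gene span trend removed too, 369 and 522 with a floor 1 log2 unit higher, 548 and 1028 with a robust prior, 855 and 1670 with zero residuals left out, and 153 and 92 without an intensity trend in the prior. Between the LPS arrays the number of receptor genes 2-fold apart was 1 rather than 2 after both trends were removed. With 1.5-fold in place of 2-fold, 3 genes differed between the untreated arrays (Clec4a2, Clec4e and Cd209f), 3 were 1.5-fold apart with LPS on the arrays labelled Bid-/- (Clec4a2, Clec4a3 and Clec4e) and 1 differed in response (Clec4n). In the other settings these counts stayed within 1.5 times the reported ones. Over 6 settings of the values, the difference between the labels ran from -1.28 to -1.22 for Clec4a2 and from -1.12 to -0.92 for Cd209f with LPS, and from -0.89 to -0.86 and from -1.33 to -1.28 without it. Splits of all 2-fold genes moved with scaling: 36 higher and 54 lower between the LPS arrays became 36 and 31 with both trends removed, 266 and 231 with LPS in WT became 288 and 149, and 18 and 71 for the difference of response became 26 and 45. With LPS on the arrays labelled Bid-/-, 297 and 181 became 346 and 119 after quantile normalization and 347 and 119 with the intensity trend removed. Leaving out a replicate was not possible with 1 array a group. No paired analysis was possible because the labels give no replicate numbers that groups share; genotype is already a term of the additive fit.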
